A study of Mus musculus with 6 samples.

Results

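A protein-coding host of a miRNA gene was taken here as a protein-coding gene whose annotated span fully holds a row for a miRNA gene, on either strand, and 38 such hosts were described among the 8439 protein-coding rows of the deposited table. The same rule found 47 hosts, of which 9 were left out by name: Myh6, Myh7, Myh7b, Ppargc1b, Ctdspl, Ctdsp2, Egfl7, Tlcd2 and Gm11146. The miRNAs of Egfl7 stayed in, since they also lay in the span of Gm20532. The 38 hosts held 53 of the 134 miRNA rows, in 57 pairs of a host and a miRNA, since 4 miRNA rows lay within 2 hosts each. The rule used positions and the presence of a row, not the size of any value.

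Libraries of small RNA, made from total RNA of whole mouse hearts, were sequenced at postnatal day 6, with 3 libraries from ADAR2-/- animals and 3 from wild type animals, all female siblings of SV129 background. ADAR2, encoded by Adarb1, is an enzyme that edits adenosine to inosine in double-stranded RNA. The knockouts, and according to the study's methods the wild type animals too, were homozygous for Gria2 R/R, an allele of a glutamate receptor gene that already encodes the edited codon and allows mice without ADAR2 to live. The deletion was carried in every cell of the animal and not in the heart alone. The deposited table gave 1 usable value per gene, the authors' mean normalized count over all 6 libraries. A level per animal, an error, a test and a contrast of the genotypes could therefore not be given, and every value below is a mean over both genotypes with no SD and no n. Since the libraries were made for small RNA, the value of a protein-coding row counts short RNAs assigned to that gene and is no measure of its mRNA level. In whole hearts, few cells of a type and little RNA per cell cannot be told apart.

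Many miRNAs are transcribed as part of a longer RNA, and a large share of them lie in introns of protein-coding genes. Where the miRNA lies on the strand of its host, the hairpin can be cut from the host's intron by the Drosha and DGCR8 complex, so that 1 transcript can give both an mRNA and a miRNA. A miRNA on the opposite strand is made from a separate transcript. The 2 kinds of resident are known together in the heart: miR-126 of endothelial cells lies within a gene on its own strand, while a muscle pair of miR-1 and miR-133a lies antisense in Mib1.

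The mature sequences of residents that shared a seed with another resident are shown first. Left out is miR-199a-5p, given by both Mir199a-1 in Dnm2 and Mir199a-2 in Dnm3, with the seed CCAGUGU. The 5′ end stands first, the capitals mark the seed (bases 2 to 8), and sequences and positions come from RefSeq on GRCm38.p6. Of the 53 resident miRNA rows, 38 were matched there by symbol.
The let-7 residents of 3 hosts shared the seed GAGGUAG.
let-7g-5p in Wdr82 (chr9:106178846-106178867, + strand): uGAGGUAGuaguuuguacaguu
let-7f-5p from Mirlet7f-2 in Huwe1 (chrX:151912353-151912374, + strand): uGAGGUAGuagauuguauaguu
let-7e-5p in Spaca6 (chr17:17830366-17830387, + strand): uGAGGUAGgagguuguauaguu
The residents of the 3 dynamin genes gave the same 3p sequence, letter for letter, with the seed CAGUAGU.
miR-199b-3p in Dnm1 (chr2:32318524-32318545, + strand, opposite to the host): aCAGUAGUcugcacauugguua
miR-199a-3p from Mir199a-1 in Dnm2 (chr9:21496498-21496519, - strand, opposite to the host): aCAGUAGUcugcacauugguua
miR-199a-3p from Mir199a-2 in Dnm3 (chr1:162217883-162217904, + strand, opposite to the host): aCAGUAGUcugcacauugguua
The residents of Slit2 and Slit3 gave the same 5p sequence with the seed UGUGCUU.
miR-218-5p from Mir218-1 in Slit2 (chr5:48223966-48223986, + strand): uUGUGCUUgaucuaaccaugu
miR-218-5p from Mir218-2 in Slit3 (chr11:35616840-35616860, + strand): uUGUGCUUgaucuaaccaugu
Both miR-30 residents of Nfyc had the seed GUAAACA.
miR-30e-5p in Nfyc (chr4:120772660-120772681, - strand): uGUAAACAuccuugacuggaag
miR-30c-5p from Mir30c-1 in Nfyc (chr4:120769584-120769606, - strand): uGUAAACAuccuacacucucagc
A read of an identical mature sequence has more than 1 possible source. Among the matched resident rows, 11 shared a mature sequence with another miRNA gene. How the authors' counting placed such reads is not given in the sources used here. Rows that were not matched, Mir1a-2 and Mir133a-1 in Mib1 among them, were not checked for this. Only identical sequences were counted, so near-identical ones, such as let-7g-5p beside let-7f-5p, were left out.

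A choice of matched residents from hosts in which the residents reached 50% of the host mean is shown next. It is not a ranking by level.
miR-126a-3p in Gm20532 (chr2:26591402-26591423, + strand): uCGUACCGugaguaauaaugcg
miR-652-3p in Tmem164 (chrX:142739060-142739080, + strand): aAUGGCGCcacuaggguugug
miR-99b-5p in Spaca6 (chr17:17830194-17830215, + strand): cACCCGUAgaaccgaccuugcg
miR-125a-5p in Spaca6 (chr17:17830817-17830840, + strand): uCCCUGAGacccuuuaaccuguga
miR-21a-5p in Vmp1 (chr11:86584120-86584141, - strand): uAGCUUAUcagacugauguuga
miR-149-5p in Gpc1 (chr1:92850381-92850403, + strand): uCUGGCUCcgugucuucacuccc
miR-148b-3p in Copz1 (chr15:103285185-103285206, + strand): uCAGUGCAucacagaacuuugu
miR-16-5p from Mir16-2 in Smc4 (chr3:69009918-69009939, + strand): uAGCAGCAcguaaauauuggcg
miR-27b-3p in 2010111I01Rik and, antisense, in Fancc (chr13:63300760-63300780, + strand): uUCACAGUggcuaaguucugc
These 9 residents carried 9 different seeds.

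The residents were mostly intronic and on the strand of their host. Of the 57 pairs, 34 had the miRNA on the strand of the host and 23 on the opposite strand. Placement was first set by the exons of all annotated transcripts of the host. The miRNA lay wholly in an intron in 44 pairs, wholly in an exon in 10 and across an exon border in 3. Among the same-strand pairs 25 of 34 were intronic, and among the opposite-strand pairs 19 of 23 were. The intronic residents lay between 21 bases (Mir106b in Mcm7) and 46387 bases (Mir378c in Samd4) from the nearest exon of the host, with a median of 1758 bases.

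The exonic residents were Mir21a in Vmp1, Mir25 in Mcm7, Mir5121 in Rpl13a, Gm26377 in Eef1a1, Mir27b, Mir24-1 and Mir3074-1 in 2010111I01Rik, and Mir127, Mir136 and Mir3071 in Rtl1. Mir328 in Elmo3, Mir330 in Eml2 and Mir125a in Spaca6 crossed an exon border. In their pairs with Fancc, Mir27b, Mir24-1 and Mir3074-1 were intronic. Several of these exons belonged to noncoding transcripts, and with the exons of coding transcripts alone 50 of 57 pairs were intronic. Most hosts, 28 of 38, held 1 miRNA row, and 10 held several, up to 4 in Spaca6, Fancc and 2010111I01Rik. By strand, 20 hosts had residents on their own strand only, 10 on the opposite strand only and 8 on both.

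The strand of a resident describes the annotation and not the strand of its reads. In 7 places within these hosts, miRNA rows overlapped each other on opposite strands, and in 7 of 7 both rows had the same mean. The pairs were Mir126a and Mir126b at 675, Mir1b and Mir1a-2 at 91.2, Mir486 and Mir3107 at 18.0, Mir30e and Mir30f at 7.64, Mirlet7e and Gm25927 at 6.08, Mir24-1 and Mir3074-1 at 3.97, and Mir136 and Mir3071 at 2.96. The same held for all 14 such overlaps in the whole table. A summed miRNA mean below therefore counts such a pair once, unless said otherwise. Every host counted above with residents on both strands was so counted only because of such a pair.

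A host's mean was never below that of a resident. In 0 of 57 pairs was the miRNA mean above the host mean, although the hairpin covered between 0.0175% and 2.31% of the host's span, with a median of 0.0920%. Across the 38 hosts the summed mean of the residents was 2.24% to 267% of the host mean, with a median of 52.3%. It reached 50% or more in 19 hosts, lay between 10% and 50% in 11, and was under 10% in 8. When every row was added, overlapping pairs included, 20 hosts reached 50% and the median was 61.2%. In normalized counts the 38 host means added up to 2501, which was 1.17% of the sum over all rows, and the distinct residents added up to 1163, or 46.5% of the hosts' sum. Without Mir126a the residents' sum was 488, and without Gm20532 the hosts' sum was 1821. Whether the host rows counted the reads of the miRNA is not stated in the sources used here, and it was not tested on reads. A share in this text is thus a ratio of 2 deposited means, and no statement on how much mRNA a host made can be read from it.

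**Figure D1:**
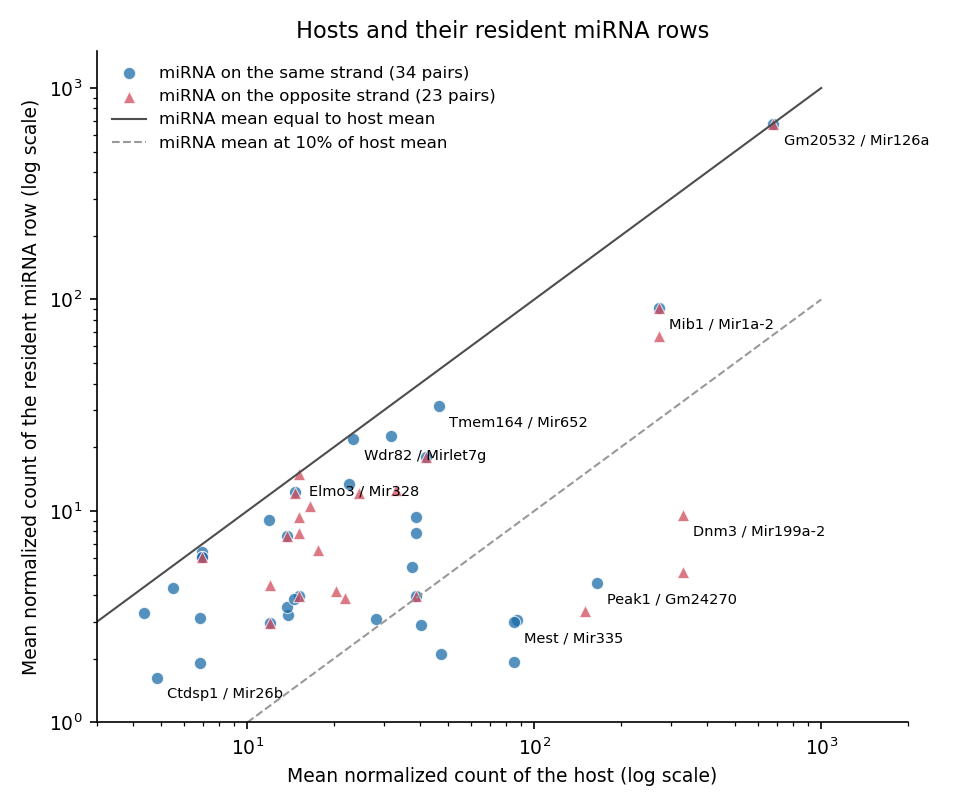
Mean normalized count of each host (horizontal axis, log scale) against that of each resident miRNA row (vertical axis, log scale) for the 57 pairs, with circles for residents on the host's strand and triangles for those on the opposite strand. No point lies above the solid line of equal means. The residents of 8 hosts, Peak1, Dnm3 and Mest among them, lie below the dashed line at 10%.

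Gm20532, a predicted protein-coding gene (chr2:26586639-26635634 on GRCm38, + strand), had a mean of 680.2. Its intronic residents Mir126a and Mir126b had a mean of 675, which was 99.3% of the host mean. miR-126 is known from endothelial cells, where it acts in vessel growth. The span of Gm20532 overlapped that of Egfl7, the usual host of miR-126, whose row had a mean of 676. The mean of Gm20532 less the miRNA mean was 4.99 normalized counts. Of the 5 endothelial markers listed, 4 had a row, and their means added up to 27.2.

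Mib1 encodes a ubiquitin ligase that acts on ligands of the Notch receptors. Its row had a mean of 272. Antisense in its introns lay Mir1a-2, with a mean of 91.2, and Mir133a-1, with a mean of 67.1, both of them muscle miRNAs. Together they were 58.2% of the host mean. Whether other miRNA genes give the same mature sequences was not checked for these residents, so their means cannot be assigned to this locus alone. An antisense row within Mib1, Mir133a-1hg, had a mean of 158, and the miRNAs were 99.9% of it. The mean of Mib1 less the miRNA means was 114 normalized counts. Markers of cardiomyocytes, the muscle cells of the heart, which are mRNA genes counted here by their short RNAs, had a row for 7 of 10 listed genes, with means of 2.59 to 82.9 and a sum of 173. Of the other lists, 4 of 5 fibroblast markers (sum 71.9), 4 of 6 markers of blood and macrophages (18.3), 1 of 4 markers of smooth muscle and pericytes (7.16) and 1 of 5 markers of tissues other than heart (Ins2, 6.99) had a row.

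**Figure D2:**
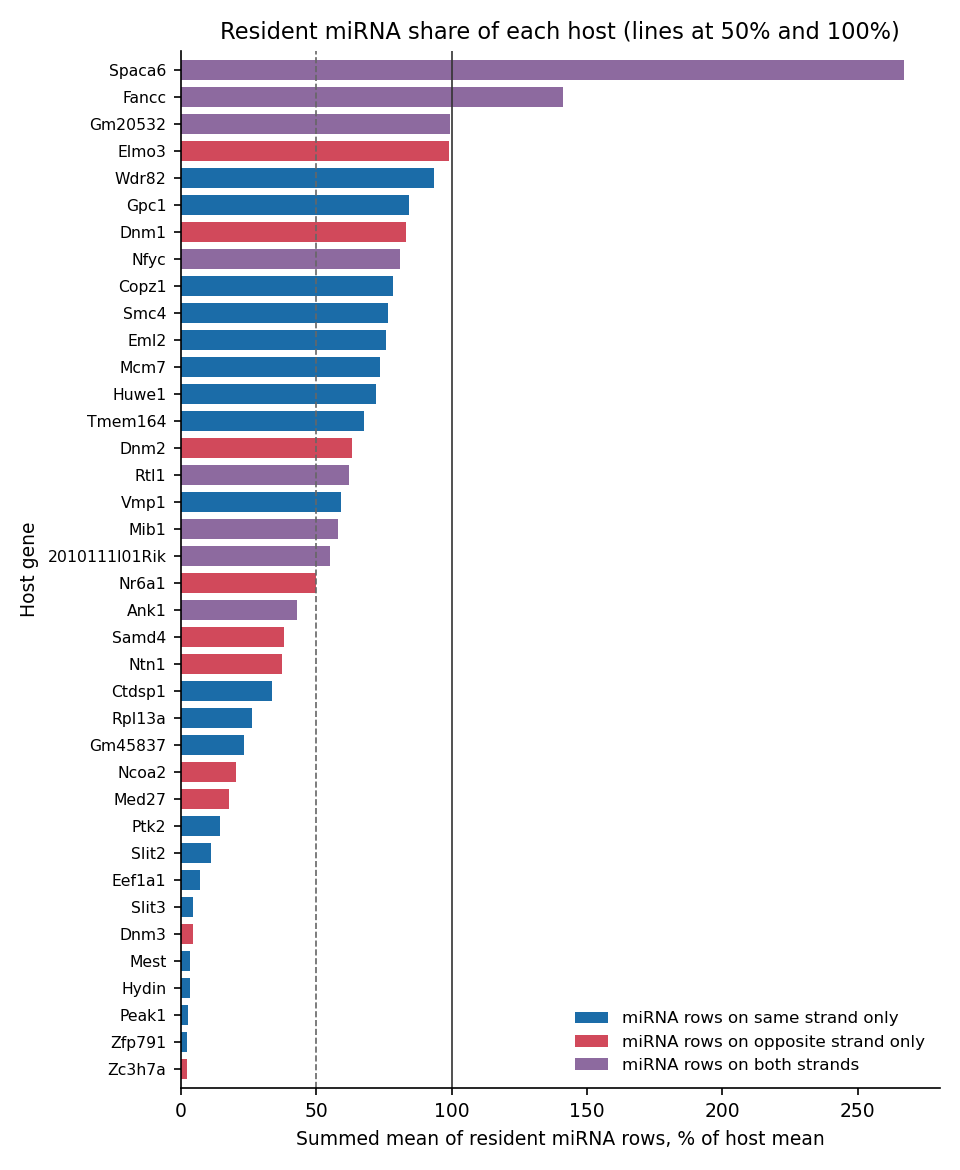
Summed mean of the resident miRNA rows as a percentage of the host mean (horizontal axis) for each of the 38 hosts (vertical axis), overlapping rows with identical means counted once and bars coloured by the strand of the residents. Spaca6 and Fancc lie above 100%, and 19 hosts reach the dashed line at 50%.

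The role lists used below placed 14 of the 38 hosts and left 24 in none, so their counts are incomplete and are read beside the 19 of 38 hosts at 50% or more. On the list of membrane traffic, cytoskeleton and adhesion 4 of 5 hosts reached 50%. Other hosts of the same field were on no list and stood on both sides of 50%. Ank1, Ptk2 and Peak1 were at 42.9%, 14.5% and 2.76%, while Eml2 and Elmo3 were at 75.6% and 99.2%. Gpc1 encodes glypican 1, a heparan sulfate proteoglycan of the cell surface. Its mean was 14.7 and that of its intronic Mir149 was 12.3, a share of 84.1%. Copz1, a subunit of the COPI coat of vesicles, had a mean of 5.53 and its Mir148b one of 4.33, a share of 78.2%. The other members of this list were the dynamins, large GTPases that cut membrane necks during endocytosis.

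The share of the miR-199 residents differed among the dynamins. The deposited means of Dnm1, Dnm2 and Dnm3 were 14.7, 16.6 and 329. Those of Mir199b, Mir199a-1 and Mir199a-2 were 12.2, 10.5 and 9.56, each on the strand opposite to its host. The residents were thus 83.1% of the mean of Dnm1, which is best known from neurons, and 63.1% of that of Dnm2, the dynamin found in most tissues. In Dnm3, Mir199a-2 was 2.90% and Mir214 a further 1.56%. Per kilobase of exon the host means were 2.80 for Dnm1, 3.11 for Dnm2 and 13.5 for Dnm3. Dnm3 also held Dnm3os, the antisense RNA known as the precursor of miR-199a and miR-214, with a mean of 15.4. Mir199a-2 and Mir214 added up to 14.7, or 95.4% of Dnm3os. The 2 other antisense rows that lay in or across Dnm3, 2810442N19Rik and Gm38304, had means of 43.9 and 45.0 and held no miRNA row. The 3 miR-199 rows share their 3p sequence, shown above, so their near-equal means cannot be assigned to single loci here.

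The hosts of miR-218 were the only hosts on the list of signalling genes, channels and ligands, and both were under 50%. The list left out Ntn1 and Ptk2, at 37.3% and 14.5%, and Mib1, at 58.2%. Slit2 and Slit3 encode secreted ligands of the Robo receptors and guide axons and migrating cells. Their host means were 28.2 and 47.3, and those of Mir218-1 and Mir218-2 were 3.09 and 2.11. The shares were 11.0% in Slit2 and 4.46% in Slit3. The 5p sequences of both residents are the same.

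**Figure D3:**
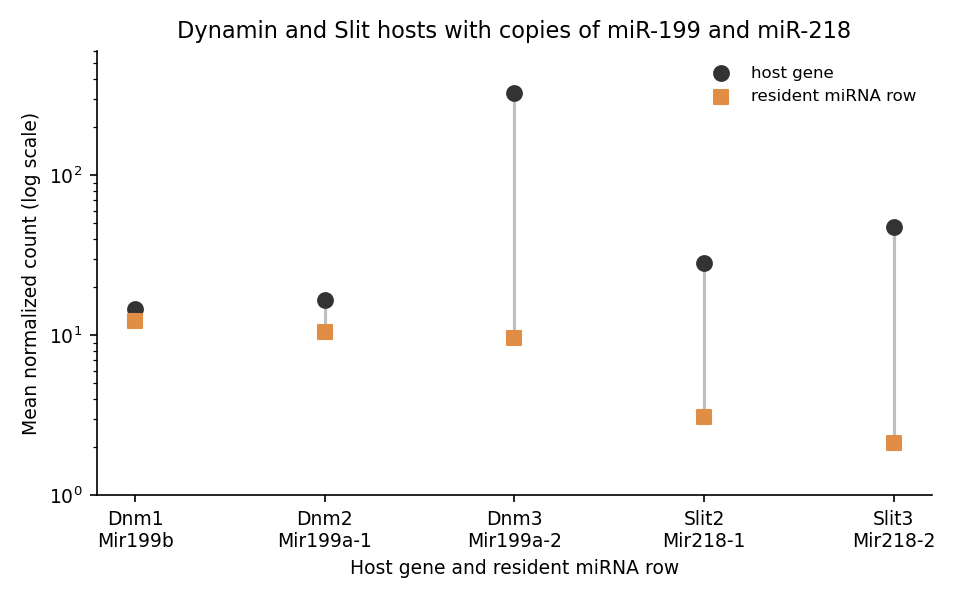
Mean normalized count (vertical axis, log scale) of the dynamin and Slit hosts (circles) and of 1 resident miRNA row in each (squares), joined by a line. The square is 83.1% of the circle in Dnm1 and 63.1% in Dnm2, and 2.90% in Dnm3.

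Of the 4 hosts on the list of transcription, replication, chromatin and RNA binding, 3 reached 50% and the other stood at 49.8%. The list also held the name stem Zfp, but names were matched whole, so Zfp791, at 2.26%, was not counted on it. Med27, Ncoa2, Ctdsp1 and Zc3h7a, which act in the same field but were on no list, were at 17.6%, 20.5%, 33.8% and 2.24%, and Wdr82, also on none, was at 93.5%. Nfyc encodes a subunit of NF-Y, the factor that binds CCAAT boxes. Its mean was 13.8, and Mir30e at 7.64 and Mir30c-1 at 3.51 came to 80.8% of it. Smc4, a core subunit of condensin, had a mean of 11.9 and its Mir16-2 one of 9.09, a share of 76.5%. Mcm7 belongs to the helicase that opens DNA for replication, and its mean was 6.83. Its residents Mir25, at 3.11, and Mir106b, at 1.90, came to 73.4%. Nr6a1, an orphan nuclear receptor of early development, had a mean of 24.6. The antisense Mir181a-2 in its intron had a mean of 12.2, which put Nr6a1 just under the 50% line.

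The let-7 hosts all had high shares. Wdr82 is a subunit of complexes that methylate histone H3 at lysine 4, and its mean was 23.4. Its intronic Mirlet7g had a mean of 21.9, or 93.5% of the host, a difference of 1.51 normalized counts. Huwe1, listed under protein turnover as a large ubiquitin ligase, had a mean of 31.6, and Mirlet7f-2 at 22.7 was 71.9% of it. In Spaca6, a gene needed for the fusion of sperm and egg, the mean of 6.93 was close to that of each of its residents. Mir99b had a mean of 6.37, Mirlet7e one of 6.08 and Mir125a one of 6.04. Each alone was 87.1% to 91.9% of the host mean, and together they came to 267%. A host mean that matches each of its clustered residents and not their sum was thus seen in Spaca6, where the 3 hairpins lie within 1 kilobase.

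The cluster of Mir23b, Mir27b and Mir24-1 was held by 2010111I01Rik, an aminopeptidase gene also called Aopep, and lay antisense in Fancc, a gene of the Fanconi anaemia DNA repair pathway. The residents had means of 7.83, 9.40 and 3.97, which summed to 21.2. That was 54.9% of the mean of 2010111I01Rik, 38.6, and 141% of the mean of Fancc, 15.1. In Fancc, on the opposite strand, no single resident was above the host, the highest being Mir27b at 62.4%.

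Elmo3, an adaptor of the family that activates Rac in cell engulfment, had a mean of 15.1. Its antisense resident Mir328, which crosses an exon border, had a mean of 14.9, a share of 99.2% and a difference of 0.127 normalized counts. Tmem164, a membrane protein gene, had a mean of 46.5, and Mir652 in its intron one of 31.5, a share of 67.7%. Vmp1 encodes a membrane protein of the endoplasmic reticulum needed for autophagy, and its mean was 22.6. Mir21a, known to rise in stressed hearts, lies in an exon at the 3′ end of Vmp1, and its mean of 13.4 was 59.3% of the host. Eml2, which binds microtubules, had a mean of 4.35 and Mir330 one of 3.29, a share of 75.6%.

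Rtl1 is an imprinted gene derived from a retrotransposon and needed in the placenta. Its mean was 12.0. Mir127, antisense in its exon, had a mean of 4.48 and Mir136 with Mir3071 one of 2.96, which came to 62.0% of the host. Mest, another imprinted gene, is expressed from the paternal allele in mesoderm. It had a mean of 84.8, while that of its intronic Mir335 was 2.98, a share of 3.51%. With 2010111I01Rik, Mest made up the metabolism list, of which 1 of 2 reached 50%. On the scale of means per kilobase of exon, Mest stood at 21.5 and Rtl1 at 1.89.

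Residents were between 10% and 50% of the host in 11 genes, Nr6a1 and Slit2 among them. Ank1 encodes ankyrin 1, which ties membrane proteins to the spectrin skeleton. Its mean was 41.9, and Mir486, a miRNA of muscle and red cells, had a mean of 18.0, a share of 42.9%. The antisense row Gm15816 in Ank1 had a mean of 18.7, of which Mir486 was 96.1%. Samd4, which encodes a translational repressor, had a mean of 33.0 and the antisense Mir378c one of 12.6, a share of 38.1%. In Ntn1, which encodes the guidance protein netrin 1, Mir6406 at 6.57 was 37.3% of a mean of 17.6.

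The others in this range were Ctdsp1, Gm45837, Med27, Ptk2, Ncoa2 and Rpl13a. Mir26b, at 1.63 the lowest resident, was 33.8% of Ctdsp1, a phosphatase gene of the RNA polymerase II tail, which had a mean of 4.83. Mir139 at 3.23 was 23.3% of Gm45837, which had a mean of 13.9. Mir133c at 3.86 was 17.6% of Med27, a Mediator subunit gene with a mean of 21.9. Mir151 at 5.46 was 14.5% of Ptk2, the gene of focal adhesion kinase, which had a mean of 37.6. Gm27881 at 4.19 was 20.5% of Ncoa2, a coactivator gene of nuclear receptors with a mean of 20.4. Rpl13a, a ribosomal protein gene and a classic host of snoRNAs, had a mean of 14.6. Mir5121 in it had a mean of 3.82, a share of 26.1%, and the snoRNA rows Snord32a, Snord33 and Snord34 had means of 2.85, 4.25 and 2.73.

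In 8 hosts the residents were under 10% of the host mean, with summed resident means of 1.93 to 14.7 and host means of 40.2 to 329. Besides Dnm3, Slit3 and Mest these were Peak1 at 2.76%, Zc3h7a at 2.24%, Zfp791 at 2.26%, Hydin at 3.50% and Eef1a1 at 7.16%. Peak1 encodes a pseudokinase of the cytoskeleton and had a mean of 165. Zc3h7a, a gene of a zinc finger protein that binds RNA, had a mean of 150.2. Zfp791, another zinc finger gene, had a mean of 85.3 over only 2.95 kb of exon, which put it next after Gm20532 per kilobase of exon, at 29.0. Hydin, a gene of motile cilia, had a mean of 87.2, and Eef1a1, the gene of a translation elongation factor, one of 40.2. In Hydin the resident Gm47306, with a mean of 3.05, lay within a misc_RNA row, Gm22701, with a mean of 3.18.

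A division by the names of the residents was made after the values were seen. In 6 hosts (Ncoa2, Eef1a1, Hydin, Peak1, Zfp791 and Zc3h7a) every resident row had a provisional name that begins with Gm, and the resident means ran from 1.93 to 4.56. Their shares were 2.24% to 20.5% with a median of 3.13%, beside a median of 60.6% in the 32 hosts with a named miRNA. The host means differed too, with a median of 86.3 (20.4 to 165) in the 6 hosts and 19.8 in the 32. Gm24270 in Peak1, Gm23935 in Zc3h7a and Gm23388 in Zfp791 were each annotated with 57 bases.

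Per kilobase of exon the 38 hosts had a median of 3.39 normalized counts, beside 1.36 over the 8409 protein-coding rows with an annotation. Without the division by length the medians were 23.0 and 6.78. The rule asked for a resident with a row, and no host mean was below that of a resident, so the lists were not chosen alike. How far this bears on the difference was not tested. For 672 other protein-coding rows, whose span holds an annotated miRNA gene without a row, the median was 8.86, and 1.39 per kilobase of exon. For the 14 protein-coding rows that hold a snoRNA row it was 9.37, and 5.23 per kilobase of exon, above that of the miRNA hosts. The host mean less the summed distinct residents had a median of 10.9 normalized counts. It was negative in Spaca6 (-11.6) and Fancc (-6.14). Such a difference is arithmetic on deposited means and no count of a host's own reads.

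The resident share by strand class was 29.9% (median) in the 20 hosts with same-strand residents only, 37.7% in the 10 with opposite-strand residents only and 71.4% in the 8 with both. It reached 50% in 9, 3 and 7 of them. The 8 hosts of the last class were in it only through an overlapping pair of rows with identical means. Such a pair is counted once in the share, so this class rests on how these pairs are annotated. A different kind of resident gave a comparison: 14 protein-coding rows held a snoRNA row, and there the snoRNAs were 23.4% to 97.6% of the host mean with a median of 75%, at 50% or more in 12. These spans were short, 5.39 kb at the median beside 88.0 kb for the miRNA hosts. The resident miRNA rows themselves had a median mean of 6.08, and 36 of 53 were under 10. For the 71 miRNA rows outside every protein-coding row the median was 7.98.

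**Figure D4:**
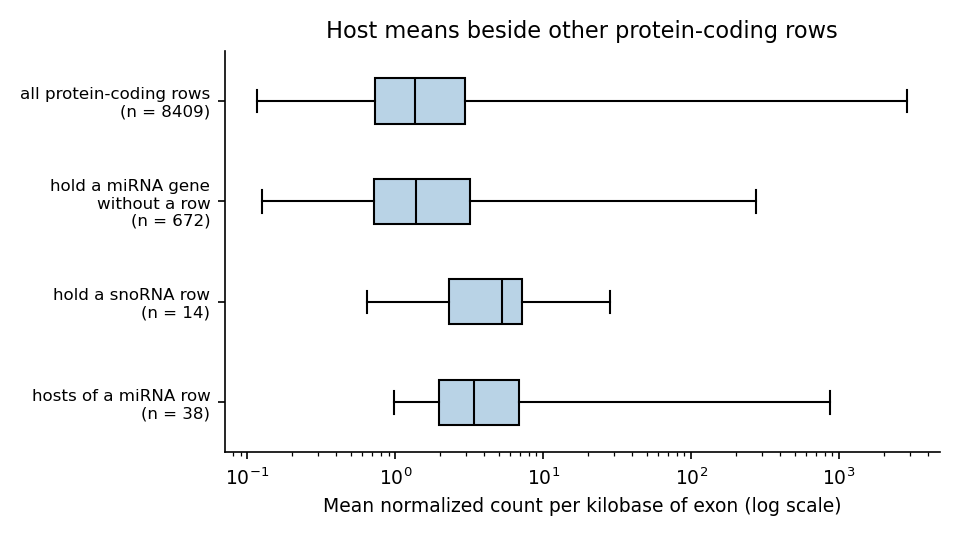
Mean normalized count per kilobase of exon (horizontal axis, log scale) over lists of protein-coding rows, with the box from the lower to the upper quartile, the line in it at the median and the whiskers at the lowest and highest value. The median is 3.39 for the 38 hosts of a miRNA row, 5.23 for the 14 rows that hold a snoRNA row and 1.36 for all protein-coding rows. The lists were not chosen alike, since a host had to hold a miRNA with a row.

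Other rows shared the span of 11 hosts, so the host means less the residents need not be theirs alone. Copg2 overlapped Mest with a mean of 6.56, Ankmy1 overlapped Gpc1 with 6.64, and Arap1 overlapped Gm45837 with 4.34, none of them holding the miRNA. Within the spans of the 38 hosts 66 miRNA genes were annotated, of which 53 had a row and were described. Of 41 pairs of a mouse miRNA and its host listed from textbook knowledge, 17 were found among these hosts.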

How the data were processed

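From total RNA of whole hearts the authors made and sequenced 6 small RNA libraries, 3 from ADAR2-/- and 3 from wild type animals. Per the labels, the submitters' processing notes name cutadapt, Bowtie, DESeq and the build mm9. The study's methods also name NextGenMap, used to map clipped reads to mature microRNA sequences with a minimum identity. How that step bears on the deposited means is not stated. The counting rule, its use of strand and its treatment of reads with several positions are not given in the sources used here. The deposited signal is the authors' mean normalized count over the 6 libraries, 1 value a gene. The other columns hold the authors' comparison of the genotypes (fold changes on a log2 scale, their errors, test statistics and p-values) and were not used. The table holds no total per library, and the study's methods give only a minimum number of reads per sample, so no interval was given.

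Of 10065 identifiers, 10005 were matched by Ensembl identifier to GENCODE release M21 (GRCm38), which gave types, spans, exons and strands. Its build differs from that of the authors. The rule for a host, the sums, the shares and the division by exon length were computed in Python 3.11.15 and drawn with matplotlib 3.10.9, and the interval rules were tested on simulated loci. Means in normalized counts are given as deposited, and were set against each other as shares within a locus, as medians of lists, or per kilobase of exon. Every host was named, and the 10 of highest mean and those next to the 50% share were to be among them. The members, the gene lists and the pairs from textbook knowledge were chosen with earlier results of these data known. Mature sequences were read from RefSeq, and none is shown for chromosome 18. Alternatives covered the overlap, coding transcripts, minimum means of 10, strand, and how residents are added up.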

Additional observations from a re-analysis of the deposited data

How the results depend on the processing

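The number of hosts, 38, fell to 13 when a resident mean of at least 10 was asked for, and the hosts with a same-strand resident fell from 28 to 8. The hosts whose residents reached 50%, 20 of 38 with every row added, were 11 of 13 with resident means of at least 10. With same-strand residents alone they were 13 of 28. The median share, 61.2%, was 37.7% with the highest resident only, 52.3% with identical rows counted once, 49.8% in hosts with a mean of at least 10 and 38.3% with same-strand residents alone. The median host mean, 23.0, was 28.2 in hosts with a mean of at least 10 and 10.7 less the summed residents. Per kilobase of span in place of exon the median was 0.270 and not 3.39. On that scale it was 0.118 over all protein-coding rows with an annotation. For protein-coding rows that hold an annotated miRNA gene without a row it was 0.103, and for those that hold a snoRNA row 1.68. Intronic pairs numbered 44, and 50 by the exons of coding transcripts. No paired analysis was possible because only means over all libraries were used, and for the same reason no library could be left out. Means near the lowest in the table, 1.09, rest on few reads per library, and a share built on them has an unknown error.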
